A study of Homo sapiens with 6 samples.

Results

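PUM2, ATXN2, ATXN2L, PRRC2A, PRRC2B and PRRC2C encode RNA-binding proteins that act on translation, and were taken from the deposited tables by these 6 gene symbols. Of the 6 genes, 5 had a translational efficiency value among 8121 genes, all but PRRC2A. A ribosome occupancy profile among 9570 transcripts was also given for 5, all but PUM2, and 4 genes had both. The values come from ribosome profiling, in which ribosome protected fragments (RPFs), the short pieces of mRNA shielded by a ribosome from nuclease, are sequenced. HEK293 cells, a human embryonic kidney line, were used in 3 replicates with total RNA from each lysate, and the sample labels give control siRNA for every library. There was therefore a single group and no treated group, and the comparisons are between these mRNAs and all others. Cycloheximide, an inhibitor of elongation, was given to the living cells for a few minutes and was also in the wash and the lysis buffer. Of 6 genes known to be expressed in HEK293 cells, 4 were listed in either table, and of 5 markers of liver, leukocytes and basal epithelium 0 were listed.

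PUM2 is a Pumilio protein, which binds UGUA-containing sites in 3′UTRs and recruits the Ccr4-Not deadenylase complex to repress the mRNA. ATXN2 and its paralog ATXN2L carry LSm domains and a motif that binds the poly(A)-binding protein PABPC1, and both proteins accumulate in stress granules, where mRNAs gather when initiation is blocked. ATXN2 is also known for a CAG repeat at the 5′ end of its coding sequence that is expanded in spinocerebellar ataxia. PRRC2A, PRRC2B and PRRC2C are long proline-rich coiled-coil proteins that bind initiation factors and have been linked to scanning past upstream start codons.

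The sequences around the start codons are shown because 5 of the 6 mRNAs, ATXN2 in a short form, share a feature there. Each line gives the last 24 bases of the 5′UTR, the start codon and the next codon, 5′ to 3′ on the coding strand, from GENCODE annotation lifted to GRCh37. Capitals mark the start codon and any ATG before it.
PUM2: agccctgtttgatctgtggATGaaATGaat
ATXN2: tcttttgATGgaatctATGcaaatATGagg
ATXN2L: attccccttccggacgctgccatcATGttg
PRRC2A: catactcaATGagcttccagcgcaATGtcc
PRRC2B: cttactagATGacatttcatcgcaATGtcc
PRRC2C: tggactcgATGagtttccaccgaaATGtcg
An ATG was present within these 24 bases in PUM2, ATXN2, PRRC2A, PRRC2B and PRRC2C and absent from ATXN2L. Among 14721 reference (MANE Select) transcripts with a 5′UTR of at least 60 bases, 7.40% had an ATG in the last 24 bases. The ATXN2 line does not compare with this share, since it is from a short form that starts inside the reference coding sequence. All of the upstream ATGs printed were out of frame with the start codon of their line. In PUM2, the ATG 5 bases before the start opened a frame of 2 codons whose stop codon overlapped the start codon.

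The 3 PRRC2 mRNAs had the upstream ATG at the same place, 16 bases before the start codon. An ATG at exactly that distance was found in 74 of the 14721 transcripts, or 0.503%. The open frame ran for 28 codons in PRRC2A, 29 in PRRC2B and 28 in PRRC2C, and its stop codon ended 71, 74 and 71 bases into the coding sequence. Each of these upstream frames thus overlapped the start of the PRRC2 coding sequence. Over the 28 bases from the upstream ATG to the end of the fourth codon, PRRC2A and PRRC2B were identical at 23 positions. PRRC2A and PRRC2C were identical at 20 and PRRC2B and PRRC2C at 18. In the 28 bases just before, the identical positions numbered 14, 12 and 11. The first window holds the upstream ATG and the start codon, identical in all 3 by the choice of window, and further coding bases. The 2 windows are therefore unlike, and conservation of the upstream ATG was not tested. A TGA in frame with the coding sequence stood 5 codons before the start codon in all 3. It was formed by the last bases of the upstream ATG and the base after it. PUM2 also had an in-frame TGA at that distance.

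The start codons lie in GRCh37 at chr2:20527119-20527121 on the minus strand in exon 2 for PUM2, and at chr12:111991992-111991994 on the minus strand in exon 3 for ATXN2. Those of ATXN2L at chr16:28834581-28834583 in exon 1, PRRC2A at chr6:31590567-31590569 in exon 2, PRRC2B at chr9:134305532-134305534 in exon 2 and PRRC2C at chr1:171481228-171481230 in exon 2 are on the plus strand. The ATXN2 transcript that the authors' table lists is a short form. Its coding sequence (CDS) of 1074 codons, stop codon included, begins in frame at codon 106 of the 1156-codon reference CDS. Its longest run of CAG triplets, counted in any frame, is 3. The occupancy profile of ATXN2 therefore does not cover the CAG repeat, and the bases printed upstream of its start codon are coding sequence in the reference form. ATXN2L had 2 annotated transcripts with the listed CDS length, which share their first 1028 of 1045 codons. The listed forms of ATXN2L and PRRC2C (1045 and 2818 codons) are also not the reference forms (1076 and 2899 codons). Both begin at codon 1 of the reference CDS.

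Translational efficiency (TE), the ratio of RPFs to total RNA of a gene, was low for PUM2, ATXN2 and PRRC2B, slightly above the median for PRRC2C and high for ATXN2L. The question was how efficiently each mRNA is translated relative to the other mRNAs of the cell. All 5 measured members differed from the median of all genes (limma on log2(TE + 0.01) with Benjamini-Hochberg adjustment over all genes), 2 of them higher and 3 lower. Over all genes measured, 7249 of 8121 did so (89.3%), with 44.7% higher and 44.6% lower, so the share of members called was close to that of all genes. The labels do not say that the replicates were separate cultures, and p-values measure the spread between these samples only.

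PUM2 had the lowest TE of the 5. Its values were 0.106, 0.102 and 0.111 in replicates 1, 2 and 3, or 0.106 ± 0.00454 (SD, n = 3). The 3 values lay close together, and 8.45% of all genes had a lower mean. On the log2 scale PUM2 was 1.76 ± 0.0515 (SE) below the median of all genes, a difference of -1.76 with a limma adjusted p of 4.07e-06. PUM3, a nucleolar protein with Pumilio-like repeats, was on the other side of the median with a TE of 1.49 ± 0.254 (SD, n = 3). Of the other relatives listed, NANOS1, NANOS3 and TRIM71 had no TE value.

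ATXN2 gave TE values of 0.168, 0.122 and 0.157, or 0.149 ± 0.0245 (SD, n = 3). ATXN2L gave 1.06, 1.13 and 1.01, or 1.07 ± 0.0612 (SD, n = 3). The paralogs stood on opposite sides of the median of 0.385 and their replicate values did not overlap. The difference from the median was -1.32 ± 0.0982 for ATXN2 (limma adjusted p = 0.000103) and 1.45 ± 0.0560 for ATXN2L (limma adjusted p = 9.10e-06), both on the log2 scale. ATXN2L exceeded 81.4% of all genes, and ATXN2 exceeded 16.1%.

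PRRC2B gave TE values of 0.181, 0.158 and 0.197, or 0.179 ± 0.0196 (SD, n = 3). This was -1.06 ± 0.0735 from the median on the log2 scale (limma adjusted p = 7.59e-05). PRRC2C gave 0.688, 0.423 and 0.512, or 0.541 ± 0.135 (SD, n = 3). All 3 PRRC2C values were above the median, but they were the most variable of the 5, with a coefficient of variation of 24.9% against a median of 7.27% over all genes. The difference of 0.46 ± 0.137 on the log2 scale had a limma adjusted p of 0.0251. Without replicate 1 it was 0.27 with an adjusted p of 0.0492, and without replicate 3 the adjusted p was 0.0471. The PRRC2C values did not overlap with those of PRRC2B.

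In order of mean TE, the members ranked PUM2, ATXN2, PRRC2B, PRRC2C and ATXN2L. The values of ATXN2 and PRRC2B overlapped, since the highest ATXN2 value of 0.168 was above the lowest PRRC2B value of 0.158. Within each of the 3 replicates, however, PRRC2B was higher than ATXN2. The other neighbours did not overlap. With 3 values against 3, also taken as pairs, no exact test between members could pass a threshold of 0.05, and none was run. Genes with long coding sequences had a lower median TE, 0.292 over the 1335 genes with a CDS of over 750 codons. Against that median, 4478 genes were higher and 2744 lower, while the calls of the 5 members kept their direction. PRRC2C then exceeded 75.3% and ATXN2L 92.2% of the long genes, and PUM2 11.7%.

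**Figure D1:**
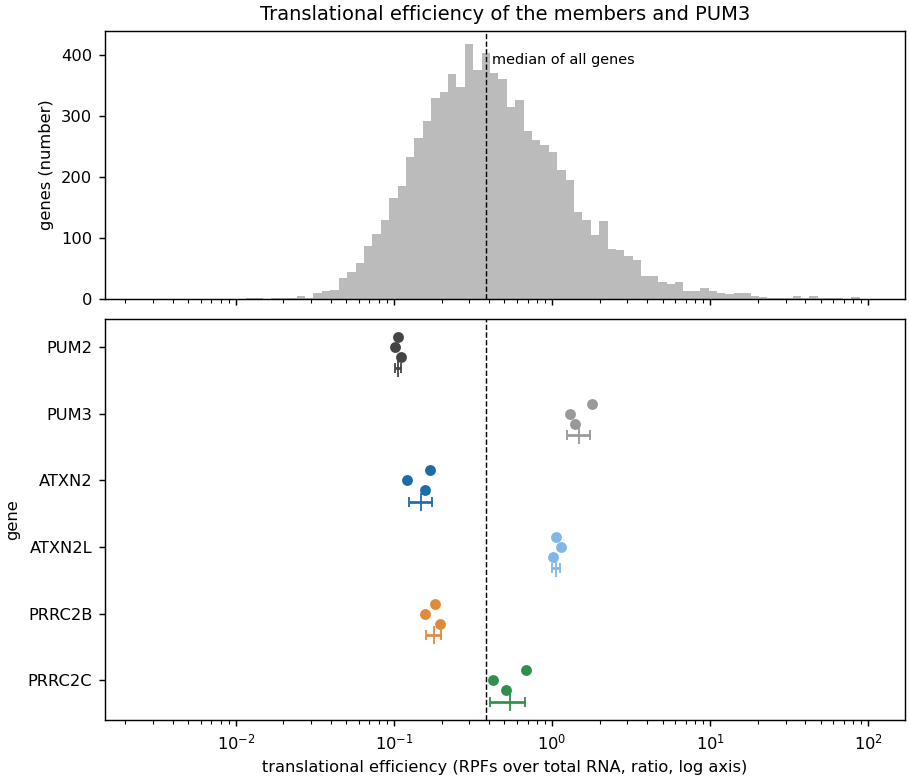
Translational efficiency (x axis, ratio of RPFs to total RNA on a log axis) of all 8121 genes as a histogram (top) and of each replicate of 5 members and of PUM3 (bottom). Points are replicates, the bar below them is the mean ± SD and the dashed line the median of all genes: PUM2, ATXN2 and PRRC2B lie left of it, PRRC2C just right of it and PUM3 and ATXN2L well to the right.

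Genes of known partners lay on both sides of the median, over a wider range than the members. Of all 8121 genes 89.3% passed the test, 44.7% higher and 44.6% lower, which is the share to set beside each list below. Of 6 ataxin-2 partners 4 were higher than the median of all genes and 1 was lower, with a median log2 difference of 1.10. LSM12, an LSm protein that binds ataxin-2, was the highest with a TE of 5.91 ± 0.634 (SD, n = 3). TDRD3, a Tudor domain protein, was the lowest with 0.0850 ± 0.00995. PABPC1 gave 1.85 ± 0.137, whereas its paralog PABPC4 gave 0.418 ± 0.0462 and did not pass the test (limma adjusted p = 0.195), although it was higher than the median of long coding sequences.

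Of the 15 stress granule RNA-binding proteins measured out of 16 listed, 7 were higher, 7 lower and FXR2 did not pass, with a median log2 difference of 0.04. Against the median of long coding sequences, UBAP2, UBAP2L and FXR1 no longer passed as lower and FXR2 passed as higher, and UBAP2 was also lost without replicate 1 or 3. TIAL1 was the highest of that list with 2.14 ± 0.145 and FMR1 the lowest with 0.187 ± 0.0142 (SD, n = 3). Of the 6 measured initiation factor genes out of 7 listed, 4 were higher and 2 lower, with a median of 0.46. EIF4G1, the scaffold of eIF4F, was the lowest with 0.0742 ± 0.00226. The highest was EIF3C, with 48.5 ± 7.90. EIF3C has a near-identical paralog, and its value is uncertain since how reads were divided between them was not tested. The median over all genes is 0 by construction on this scale.

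Ribosome occupancy, which the authors gave per codon as in-frame RPFs normalized for library size and for the abundance (TPM) of the transcript, addressed where the ribosomes were on each mRNA. The replicates were combined by the authors, so that the values have no replicate error. For each of the 5 members, however, every value above 0 was matched by a single combination of whole reads from 3 libraries within a relative tolerance of 2e-12, which allowed reads to be counted. The libraries were not tied to replicate numbers. PRRC2C had 46925 CDS reads, PRRC2A 11588, ATXN2L 11249, PRRC2B 6112 and ATXN2 6000.

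Mean CDS occupancy was high for ATXN2L (0.186), PRRC2C (0.115) and ATXN2 (0.0992), above 94.5%, 86.8% and 83.1% of all transcripts. It was low for PRRC2A (0.0217) and PRRC2B (0.0177), above 20.4% and 15.1%. The median of all transcripts was 0.0450. For ATXN2L, PRRC2B and PRRC2C this order was that of the TE values. ATXN2 was high by occupancy and low by TE, and its occupancy over its TE was 0.665, above 99.0% of the 6912 genes with both values (median 0.130). The occupancy refers to the listed short transcript, and how the TE was calculated was not stated in the methods read here. Reads in the 3′UTR were few, between 0 for PRRC2A and 7 for ATXN2 and PRRC2B.

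PRRC2A had a higher mean occupancy per codon just before its start codon than in its coding sequence. The mean over the last 17 codons (51 nt) of the 5′UTR was 0.125, above 98.9% of the 6907 transcripts with a 5′UTR of at least 100 nt, and 5.75 times the CDS mean, a ratio above 99.6%. The median transcript had 0.00195 in that window. In reads, the PRRC2A window held 520 (95% Poisson interval 476 to 567, counting error only), and its density was 5.24 to 6.23 times that of the CDS in the 3 libraries. All 3 libraries thus had the excess. Over the last 34 codons the mean was 0.0642 and the read density 2.94 times that of the CDS, since 520 of the 536 reads lay in the shorter window.

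The PRRC2A reads were concentrated on a few codons. Codon -8, counted back from the start codon, had 65, 59 and 36 reads in the 3 libraries and an occupancy of 0.652. Its neighbours at -7 and -9 had occupancies of 0.434 and 0.397, and codon -14 had 0.287. Codon -8 is the cat that opens the PRRC2A line printed above, and codon -7 is the act after it. These codons precede the upstream ATG, and the in-frame TGA at codon -5 separates them from the coding sequence. Codon -5 itself held 9, 10 and 12 reads.

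PRRC2C also had 5′UTR occupancy, at other positions. Its last 17 codons had a mean of 0.0569, above 96.2% of transcripts and 0.493 times its CDS mean. Codon -22 had 64, 43 and 36 reads and an occupancy of 1.01, and codon -2 had 52, 41 and 31 reads and an occupancy of 0.873. Codon -2 is the acc between the upstream ATG and the start codon in the PRRC2C line, while the start codon had 0, 2 and 1 reads. With codon -22 included, the mean over the last 34 codons was 0.0875, higher than in the shorter window.

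ATXN2L had 55 reads in its last 17 codons, a mean occupancy of 0.0540, above 96.0% of transcripts. Most lay at codon -2 (10, 5 and 6 reads) and codon -3, where 18 reads came from 1 library and 0 and 3 from the others. ATXN2 had 9 reads in the same window. For PRRC2B the table lists only 15 codons of 5′UTR, with 24 reads, of which codon -5 had 6, 1 and 2. Since only in-frame reads were deposited, reads assigned to the frame of the upstream ATGs are not counted in any of these values. Whether ribosomes in that frame also gave some reads assigned in frame was not tested.

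**Figure D2:**
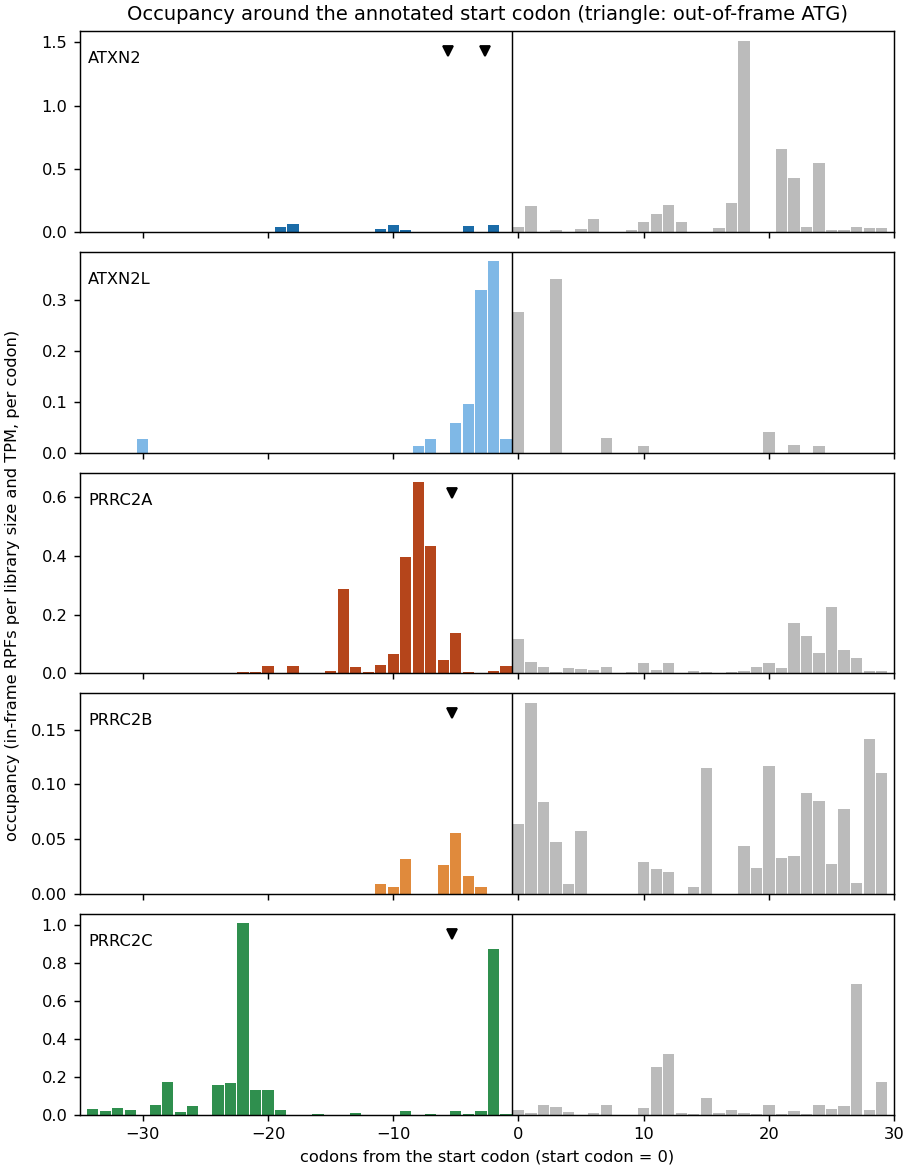
Occupancy per codon (y axis, in-frame RPFs per library size and TPM) from 34 codons before to 30 codons after the start codon (x axis, start codon at 0) for the 5 profiled members, coloured in the 5′UTR and grey in the CDS. Triangles mark out-of-frame ATGs of the last 60 bases, at the same distance in the 3 PRRC2 mRNAs. PRRC2A has its highest bar at -8 with 0.652 and PRRC2C at -22 with 1.01 and -2 with 0.873.

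Along the CDS, the first of 10 equal bins had the highest occupancy in PRRC2B (2.43 times the CDS mean). In ATXN2 the first and second bins were the highest and nearly equal, at 2.01 and 2.00 times. In PRRC2A the first bin (1.29 times) was below the seventh (1.40 times) and the ninth, although its first codons exceeded its last. The ends of PRRC2C were even. The ratio of the first to the last 75 codons was 19.1 in ATXN2, above 99.3% of 9309 transcripts, 9.72 in PRRC2B (98.4%) and 3.03 in PRRC2A (90.0%). It was 1.04 in PRRC2C and 0.583 in ATXN2L, where the median transcript had 0.980. Counted in reads, the ratio ranged over the 3 libraries from 14.6 to 24.6 in ATXN2, 7.95 to 12.3 in PRRC2B, 2.66 to 3.42 in PRRC2A, 0.946 to 1.15 in PRRC2C and 0.424 to 0.727 in ATXN2L. The ranges of ATXN2, PRRC2B and PRRC2A lay above 1 in every library, and that of ATXN2L below 1.

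For ATXN2L and PRRC2A this ratio depended on the window. Over 150 codons the ATXN2L ratio was 3.28 and turned direction, and that of PRRC2A was 1.16. That of ATXN2 was 10.3 and that of PRRC2B 6.41 over 150 codons. In ATXN2 the last 75 codons held 32 reads (95% Poisson interval 21.9 to 45.2) against 642 in the first 75 (593 to 694). Both ATXN2 paralogs were nearly empty in the last 10% of the CDS, at 0.0796 of the CDS mean in ATXN2 and 0.108 in ATXN2L, values undercut by 1.18% and 1.80% of transcripts.

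**Figure D3:**
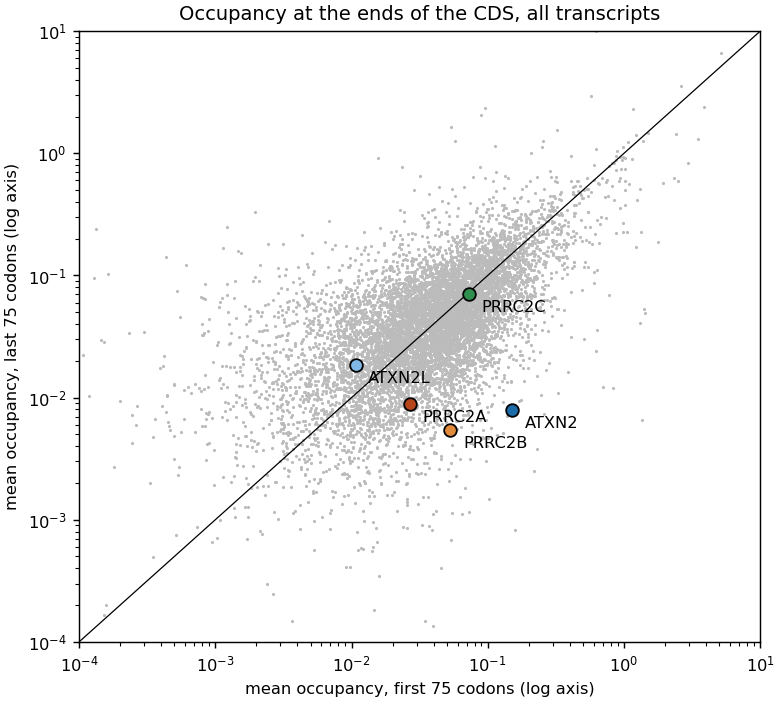
Mean occupancy of the last 75 codons (y axis, log) against that of the first 75 codons (x axis, log) for all transcripts with values above 0 at both ends (grey) and the 5 members (coloured). The line marks equal values: ATXN2 (ratio 19.1), PRRC2B (9.72) and PRRC2A (3.03) lie below it, PRRC2C (1.04) on it and ATXN2L (0.583) above it.

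**Figure D4:**
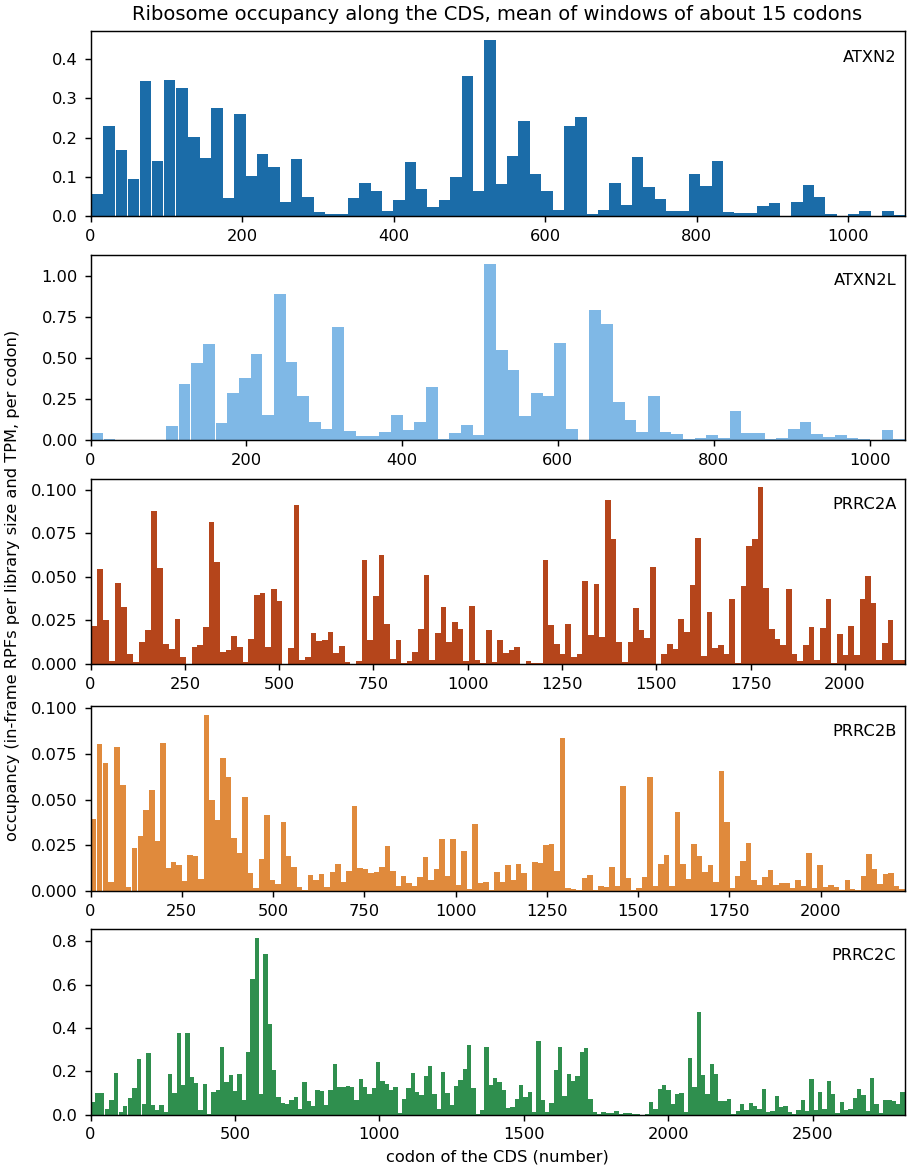
Occupancy (y axis, in-frame RPFs per library size and TPM) along the CDS of the 5 members (x axis, codon number), as means of neighbouring windows of about 15 codons. ATXN2L is nearly empty over its first 100 codons, PRRC2C between about codons 1833 and 1932, and both have their highest bars between codons 509 and 638.

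The emptiest stretch of ATXN2L was its 5′ end. Codons 2 to 101 held 46 reads (17, 24 and 5 in the 3 libraries), a density of 0.0401 times the mean, and consisted to 78.7% of G and C. The start codon alone had 3, 8 and 4 reads and codon 4 had 3, 12 and 4. Its first 75 codons were richer in GC than those of 98.4% of 7734 transcripts matched to the annotation. In contrast, the highest stretch, codons 509 to 608, held 2809 reads at a GC content of 53.3%. The difference in composition is seen in 60 bases from within each stretch, with G and C in capitals.
ATXN2L codons 22 to 41, chr16:28834644-28834703, plus strand, exon 1: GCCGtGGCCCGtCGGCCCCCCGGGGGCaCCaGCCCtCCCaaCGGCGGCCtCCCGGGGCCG
ATXN2L codons 529 to 548, across an exon junction: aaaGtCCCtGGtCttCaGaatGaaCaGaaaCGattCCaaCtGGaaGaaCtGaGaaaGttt
The first of these held 52 G or C among 60 bases and the other 24.

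PRRC2C had a similar contrast between its emptiest and its highest stretch. Codons 1833 to 1932, all within exon 19, held 60 reads (25, 23 and 12), at 0.0348 times the mean and a GC content of 62.0%. Codons 539 to 638 held 6829 reads, at 4.13 times the mean and a GC content of 38.0%. The latter stretch consisted to 79.3% of purines and the former to 31.3%.
PRRC2C codons 1853 to 1872, chr1:171526814-171526873, plus strand: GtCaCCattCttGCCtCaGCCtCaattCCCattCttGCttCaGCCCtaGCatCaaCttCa
PRRC2C codons 559 to 578, chr1:171501908-171501967, plus strand: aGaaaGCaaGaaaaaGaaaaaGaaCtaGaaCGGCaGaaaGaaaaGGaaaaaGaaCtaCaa
The first of these held 29 G or C among 60 bases and the other 19, so that the printed bases differ less in GC than the ATXN2L pair and the first lies below the 62.0% of its whole stretch.

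No stretch of 28 bases in the CDS of any of the 5 mRNAs, 28 nt being the shortest RPF used, occurred in a coding transcript of another locus (0 in each).

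When each CDS was divided into 10 equal bins, occupancy was lower in bins of higher GC content in every member. Spearman's rho over the 10 bins was -0.98 in ATXN2L, -0.89 in ATXN2, -0.75 in PRRC2A, -0.58 in PRRC2B and -0.56 in PRRC2C. The bins share the libraries and the mRNA, and no p is given. In 88.5% of 3523 matched transcripts of at least 500 codons rho was below 0, with a median of -0.49, so the sign is that of most mRNAs in these libraries. A lower rho than that of ATXN2L was found in 0.0852% of them and a lower rho than that of ATXN2 in 3.26%. In ATXN2L the 5 bins below 60% GC had 1.43 to 2.06 times the mean occupancy and the 5 bins above had 0.0769 to 0.496 times. In ATXN2 the first bin was at 39.5% GC and 2.01 times the mean, and the last at 56.4% GC and 0.0796 times. The part of base composition in the profiles, including the first-to-last ratios, was not tested.

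**Figure D5:**
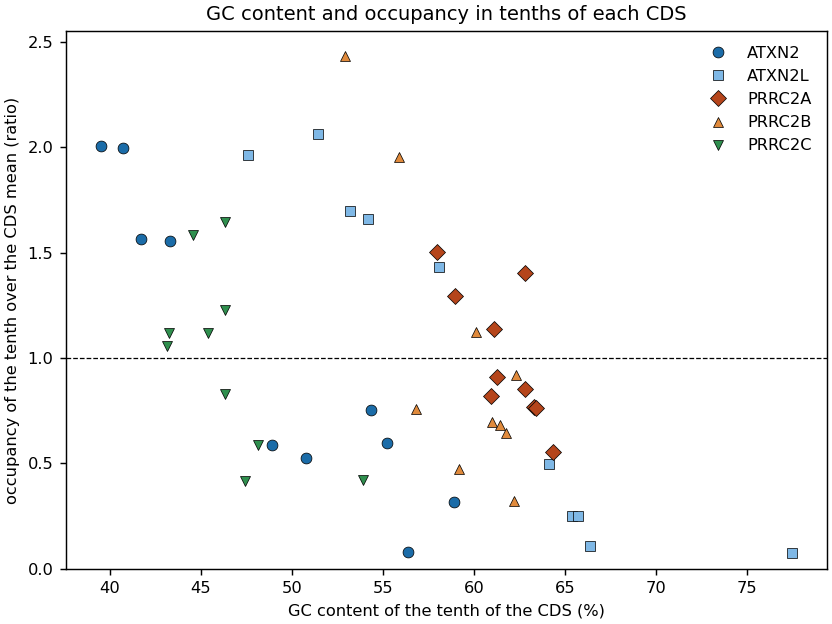
Occupancy of each of 10 equal bins of the CDS over the CDS mean (y axis, ratio) against the GC content of the bin (x axis, %) for the 5 members, 1 symbol per member. The dashed line marks the CDS mean; ATXN2L bins fall from 2.06 at 51.4% GC to 0.0769 at 77.5% GC.

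Single codons stood out from the rest of each CDS. The codon with the highest occupancy is shown in capitals with 4 codons on either side, so that the bases around each ribosome position can be read.
ATXN2 codon 491, chr12:111947771-111947773, minus strand, exon 13: caagatcagaggCAGaactctcctgca
ATXN2L codon 515, chr16:28843843-28843845, plus strand, exon 12: accaaggaacctGGGagaactctggag
PRRC2A codon 318, chr6:31593909-31593911, plus strand, exon 9: gagtttgatcagTTGgatcaggagaat
PRRC2B codon 1291, chr9:134351387-134351389, plus strand, exon 16: cacgtggcagatTCTgaaaatgcagag
PRRC2C codon 208, chr1:171486831-171486833, plus strand, exon 6: acagctggaacaTCAgagcaaaatgat
Codon 491 of ATXN2 had 89, 91 and 55 reads, 42.7 times the CDS mean, and codon 515 of ATXN2L had 209, 133 and 127 reads, 44.8 times the mean. Each was the highest codon of its CDS in all 3 libraries. In PRRC2A, codon 318 ranked between 1 and 11 over the libraries with 67, 66 and 23 reads. In the longer PRRC2 sequences the highest codon took 0.807% (PRRC2C), 1.30% (PRRC2A) and 1.73% (PRRC2B) of the CDS total, against 3.97% in ATXN2 and 4.29% in ATXN2L.

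Averaged over all sites, a codon before the proline codons CCN had 0.197 times the CDS mean in ATXN2 and 0.376 to 0.503 times in the other profiled members, with a median of 0.373 over 7721 matched transcripts. The values of the members and this median were all below the CDS mean.

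The strongest codons of paralogs were compared at aligned positions. How many would be shared by arbitrary codons was not calculated, so the counts are not read as few or many. The proteins were 50.2% identical over 862 aligned positions for ATXN2 and ATXN2L, and 43.3%, 43.2% and 43.7% for the PRRC2 pairs A and B, A and C, and B and C. Of the 10 strongest codons of each member, 1 was shared between ATXN2 and ATXN2L and 1 between PRRC2B and PRRC2C, while the other PRRC2 pairs shared 0. The shared positions are printed with the codon in capitals.
ATXN2 codon 641: aagaaagacgcaGCTgagcaagttagg
ATXN2L codon 651: gagggccctgttGCTgaacaagtaaag
PRRC2B codon 382: gaagtggactatTCTgagaaactgaag
PRRC2C codon 329: gaagtagattatACAgagcaactgaat
The occupancies of these codons were 1.37 in ATXN2, 4.58 in ATXN2L, 0.440 in PRRC2B and 2.21 in PRRC2C.

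The transcripts whose profiles over 20 CDS bins were most like those of the members, among 4157 with at least 500 codons, were TAOK2 (Pearson's r = 0.83) and ZNF77 (0.80) for ATXN2, and DYRK3 (0.77) and SAFB (0.75) for ATXN2L. ATIC (0.83) and RASA4 (0.78) were most like PRRC2A, PLEKHH2 (0.84) and FAM188B (0.83) most like PRRC2B, and CEP152 (0.83) and FARP2 (0.81) most like PRRC2C. Between paralogs r was 0.38 for ATXN2 and ATXN2L and 0.28 for PRRC2B and PRRC2C. It was 0.02 for PRRC2A and PRRC2B and -0.14 for PRRC2A and PRRC2C. The transcripts named first were picked as the highest, so they exceed the paralogs by that choice. How usual the paralog values are among all pairs was not calculated. These values are across bins of the same libraries and describe shape only.

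Because Pumilio proteins can bind the mRNAs of their own family, the 3′UTRs were searched on the coding strand for TGTANATA, a Pumilio motif. The reference 3′UTR of PUM2 (2848 nt) held 2 matches, those of ATXN2 and PRRC2A 1 each, and those of ATXN2L, PRRC2B and PRRC2C 0. The motif was found in 26.1% of 18635 reference 3′UTRs and in 41.3% of those of at least 1000 nt. The PUM2 matches are shown in capitals because both hold the same 8 bases.
PUM2 match at chr2:20450914-20450921, minus strand: tatagagaTGTATATAgaattata
PUM2 match at chr2:20450654-20450661, minus strand: agaaatatTGTATATActtacata
PUM2 had a TE of 0.106 and ATXN2 of 0.149. Among the members without a match, PRRC2B had 0.179, PRRC2C 0.541 and ATXN2L 1.07. The median TE was 0.409 over 2538 genes with the motif and 0.374 over 4986 without it. A match is a string of letters and was not tested for binding.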

How the data were processed

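RPFs and total RNA were sequenced from HEK293 cells in 3 replicates. According to the study's methods the authors trimmed reads with Cutadapt, removed PCR duplicates with cd-hit-dup, mapped RPFs with Bowtie against transcripts of hg19, kept those of 28 to 30 nt and assigned each to a codon. The methods also state that each gene was represented by its transcript of highest abundance in total RNA, with minimum RPF reads and CDS length. For total RNA the submitters' processing notes list TopHat2 2.1.1 and HTSeq 0.9.1, whereas the methods name Hisat2 as the aligner. The versions cutadapt 1.16 and Bowtie 1.1.2 are also from these notes. The deposited TE of each replicate is a ratio on a linear scale, RPFs over total RNA, and how the authors calculated it was not stated in the methods read here. The occupancy lists as deposited are counts of in-frame RPFs that the authors divided by library size and TPM and combined over replicates, so that a single value per codon remains. Of these lists 31 were broken over lines and rejoined, that of PRRC2C among them, with the value at the break left missing.

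A pseudocount of 0.01 was added to TE, and log2 values of all 8121 genes were fitted in R 4.3.3 with limma 3.58.1. The intercept was compared with the overall median, two-sided, and p-values were adjusted by Benjamini-Hochberg (FDR 0.05), without any filter. The difference understates the change of low genes. RPFs and total RNA with equal replicate numbers share a lysate, so the ratio is already taken within pairs. The tests were tested on simulated data. Reads were recovered as whole multiples of 3 steps per transcript, within a relative tolerance of 2e-12 and only where 1 combination matched, which solved 100% of the values above 0 of the 5 members. Intervals are exact 95% Poisson intervals of the recovered occupancy reads and cover counting error only, not the spread between replicates. The read counts of each gene behind the TE values are unknown here. Sequences and coordinates are from GENCODE 44 lifted to GRCh37, which is the hg19 build, matched by symbol and CDS length. The annotated 5′UTRs differ in length from the listed ones, so 5′UTR positions were counted from the start codon. Proteins were translated from these sequences and aligned with Biopython 1.88. Percentiles, profile shapes and shares over all transcripts are descriptions with no test.

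The members, the partner lists and the tests were chosen with earlier results of these data known. The genes named are the 6 members, the highest and lowest gene by TE of each partner list and the 2 transcripts most like each profiled member, and a gene that this rule takes is not reported here. PUM3, PABPC1, PABPC4, FXR1, FXR2, UBAP2 and UBAP2L and the single codons and stretches were named after their values were seen. Alternatives were pseudocounts of 0.1 and 0.001, a minimum mean TE of 0.05, leaving out each replicate, a replicate block, the median of genes with a CDS of over 750 codons, and other windows and averages of occupancy.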

Additional observations from a re-analysis of the deposited data

How the results depend on the processing

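All 5 calls of the members against the median of all genes, 2 higher and 3 lower, held under every alternative run, also in the fit with a replicate block (each replicate centred on its own median), which gave 2 higher and 3 lower and changed no call of a partner gene. The highest adjusted p of a member was 0.0492, for PRRC2C without replicate 1. Leaving out each replicate moved the log2 difference of PRRC2C between 0.27 and 0.61, and of ATXN2 between -1.41 and -1.19. The counts of partner genes called (16 higher, 11 lower) were 18 and 8 against the median of long coding sequences. There UBAP2 (0.0300) and FXR1 (0.0653) turned sign without passing, UBAP2L no longer passed and PABPC4 (0.49) and FXR2 (0.41) did. Leaving out each replicate moved FXR2 between -0.00383, a turn of sign without replicate 2, and 0.0727 without passing, and UBAP2 did not pass without replicate 1 or 3.

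Occupancy values have no test. The median over codons in place of the mean was 0.0173 for ATXN2, 0.0161 for ATXN2L, 0.00326 for PRRC2A, 0 for PRRC2B and 0.0280 for PRRC2C, since many codons were at 0. Without the highest codon the mean was 0.0953 for ATXN2 and 0.178 for ATXN2L, and without the 15 codons at each end it was 0.191 for ATXN2L. The first-to-last ratio over 50 codons was 12.8 for PRRC2B and 1.28 for PRRC2C, and over 150 codons 10.3 for ATXN2, 3.28 for ATXN2L, 1.16 for PRRC2A and 6.41 for PRRC2B. Over the last 34 codons of the 5′UTR, occupancy was 0.0278 for ATXN2L, 0.0642 for PRRC2A and 0.0875 for PRRC2C. The cause of these shifts was not tested beyond the positions given above. The combined replicates leave occupancy without a replicate error, and 9 reads in the ATXN2 5′UTR window limit that value.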
